A study of Rattus norvegicus with 9 samples.

Results

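The stathmins and the growth cone membrane proteins are 8 genes of the growing axon. They were taken by name: Stmn1, Stmn2, Stmn3 and Stmn4, and Gap43, Basp1, Marcks and Marcksl1. A transcript cluster, the unit of the array that stands for a transcript, counted as a member if its annotation held exactly 1 of these symbols. Each of the 8 genes had 1 such cluster, so 8 of 36685 clusters were members. The arrays came from cultured retinal ganglion cells, the neurons that send the optic nerve from the eye to the brain, purified from Sprague Dawley rats aged postnatal day 4. The cells had been immunopanned, electroporated together with a green fluorescent protein plasmid (pMAX-GFP), sorted for green fluorescence and lysed 3 days after transfection. The groups, of 3 arrays each, were cells with myr-Set-β (myr-SetB), cells with wild-type Set-β (wt-SetB) and control cells with mCherry, a red fluorescent protein. All 3 groups carried the green plasmid. No cluster bears the symbol Set, so the constructs could not be checked on the arrays. The labels call the replicates biological, but name no litter or culture for them, so p-values here reflect variation among arrays of unstated origin, part of which may be technical.

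Stathmins bind tubulin dimers and shorten microtubules, and phosphorylation of their serines releases the tubulin. Stmn1 is soluble, while Stmn2, Stmn3 and Stmn4 carry a palmitoylated extension that ties them to Golgi vesicles and growth cone membranes. Gap43, Basp1, Marcks and Marcksl1 are not related in sequence as one family, but all are acylated proteins of the inner plasma membrane. They mask the lipid PIP2 and let it go when calmodulin binds or protein kinase C phosphorylates them, which frees actin regulators. Gap43 is palmitoylated, whereas Basp1, Marcks and Marcksl1 are anchored by N-terminal myristate. Set binds histones and inhibits protein phosphatase 2A, one of the enzymes that dephosphorylate stathmin. The comparisons ask whether either form of Set-β alters the RNA of these genes and whether the forms differ.

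The promoters of Stmn3, Basp1, Marcks and Marcksl1 are shown because, with the deposited scaling, these 4 genes had their lowest signal on the same array. That array was myr-SetB replicate 1, which had the narrowest signal range of all. With cyclic loess Marcks was still lowest there, and Stmn3 was at 8.27 both there and on wt-SetB replicate 3. Basp1 and Marcksl1 were then lowest on other arrays, and Basp1 did not vary with the other 3. Whether these genes share regulation was not tested. The 4 promoters are in the RefSeq promoter table of build GRCr8, which holds 5 of the 8 members. Each line gives the 250 bases before the annotated start, 5′ to 3′ on the gene's strand, with GC boxes (GGGCGG) and CCAAT boxes (CCAAT) in capitals on either strand.
Stmn3 promoter (chr3:188802495-188802744, minus strand): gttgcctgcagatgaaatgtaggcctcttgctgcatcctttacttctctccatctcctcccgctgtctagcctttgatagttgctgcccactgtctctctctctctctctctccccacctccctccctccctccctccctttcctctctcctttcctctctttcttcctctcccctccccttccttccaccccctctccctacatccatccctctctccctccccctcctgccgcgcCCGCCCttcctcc
Basp1 promoter (chr2:77594298-77594547, minus strand): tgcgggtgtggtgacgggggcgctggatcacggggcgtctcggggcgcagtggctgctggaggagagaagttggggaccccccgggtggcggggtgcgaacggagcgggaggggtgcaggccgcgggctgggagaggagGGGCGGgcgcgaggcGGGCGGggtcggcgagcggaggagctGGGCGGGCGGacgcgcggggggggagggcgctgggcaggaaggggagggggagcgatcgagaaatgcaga
Marcks promoter (chr20:42245883-42246132, minus strand): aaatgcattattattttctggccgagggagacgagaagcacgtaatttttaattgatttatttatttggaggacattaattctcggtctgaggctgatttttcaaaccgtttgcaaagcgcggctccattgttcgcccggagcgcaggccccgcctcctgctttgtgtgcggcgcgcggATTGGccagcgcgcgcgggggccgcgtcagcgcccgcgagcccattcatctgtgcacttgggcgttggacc
Marcksl1 promoter (chr5:147135577-147135826, plus strand): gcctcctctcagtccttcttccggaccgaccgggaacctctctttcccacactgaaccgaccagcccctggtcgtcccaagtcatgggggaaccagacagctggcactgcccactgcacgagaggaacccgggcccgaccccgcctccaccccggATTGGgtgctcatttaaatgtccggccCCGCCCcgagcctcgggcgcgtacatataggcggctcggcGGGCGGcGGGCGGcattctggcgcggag
A GC box, the site of Sp and Krüppel-like factors, was present in 30.5% of all 33469 promoters of this length, and a CCAAT box, the site of NF-Y, in 34%. Basp1 held 4 GC boxes, of which 1 pair overlaps, and no CCAAT box, at a GC content of 76.8%. Marcksl1 held 3 GC boxes and 1 CCAAT box (68% GC), Stmn3 held 1 GC box (59.2% GC) and Marcks 1 CCAAT box and no GC box (55.6% GC). The median GC content of all promoters was 51.2%. Stmn1, the fifth member in the table, held 1 of each. None of the 5 windows held a TATA box (TATAAA, 12.9% of promoters), an AP-1 site (TGANTCA, 6.34%) or a CRE (TGACGTCA, 1.59%), motifs searched on both strands. A match of letters is no proof of a bound site, and its absence holds for this window only.

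The deposited values are intensities on a linear scale whose median is 100 on every array. They are given here as log2, so that a difference is a log fold change. The signal range of an array (its 90th minus its 10th percentile, as log2) was 3.82, 4.18 and 4.46 on the myr-SetB arrays, 4.12, 4.21 and 4.14 on the wt-SetB arrays and 4.54, 4.29 and 4.53 on the mCherry arrays (replicates 1, 2 and 3). The 1128 clusters of odorant receptors, genes of the nose that mark background here, had a 95th percentile between 7.27 and 8.15. All 13 ganglion cell markers examined had a cluster, and the number above that level was 3 to 11 on myr-SetB arrays, 9 to 11 on wt-SetB arrays and 11 or 12 on mCherry arrays. The 3 belonged to myr-SetB replicate 1, where Sncg, Thy1 and Nefm were above it and Pou4f1, Pou4f2 and Rbpms were not. Their summed linear intensity was 3545 to 6556 in myr-SetB, 4416 to 6294 in wt-SetB and 5960 to 9795 in mCherry. None of 9 photoreceptor and bipolar markers was above background on any array, and of 10 microglia and macrophage markers 0 to 3 were in myr-SetB, 1 or 2 in wt-SetB and 1 or 2 in mCherry. Of 9 amacrine and horizontal markers 0 to 3 were above it in myr-SetB, 1 or 2 in wt-SetB and 2 or 3 in mCherry, and of 6 endothelial, mural and fibroblast markers 0 to 2, 0 to 2 and 0 to 3. Of 7 glial markers only Vim was above it, on all arrays but wt-SetB replicate 1. The summed glial intensity on replicates 1, 2 and 3 was 944.1, 3221 and 4649 in myr-SetB, 687.7, 2807 and 3985 in wt-SetB and 827.6, 3549 and 4942 in mCherry. That of the endothelial, mural and fibroblast list was 721.4 to 1343, 671.2 to 1209 and 601.2 to 1585, and both sums were lowest on replicate 1 and highest on replicate 3 of every group. Where these values move with a member, their part in the result was not tested. In such cultures fewer ganglion cells and less RNA per cell cannot be told apart.

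Mean signal was below mCherry for all 8 genes in both Set-β groups, and none of the 8 differences passed the threshold. The differences ran from -0.60 (Basp1) to -0.33 (Gap43) in myr-SetB against mCherry, with a median of -0.53, and from -0.75 (Gap43) to -0.16 (Basp1) in wt-SetB against mCherry, with a median of -0.46. Over all 18343 clusters that passed a filter on low signal, the medians were -0.16 and -0.18. By limma with Benjamini-Hochberg adjustment over these clusters, 0 clusters had an adjusted p under 0.05 in either comparison, a background of 0%. Before adjustment, p was under 0.05 for 1796 clusters (9.79%) in myr-SetB and 1865 (10.2%) in wt-SetB. Among the members this number was 1 of 8 in myr-SetB, Basp1, and 0 of 8 in wt-SetB. A negative difference, which all 8 members had, was shared by 63.9% of clusters in myr-SetB and 65.5% in wt-SetB. The 2 comparisons share the mCherry arrays, so their signs are not independent of each other.

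**Figure D1:**
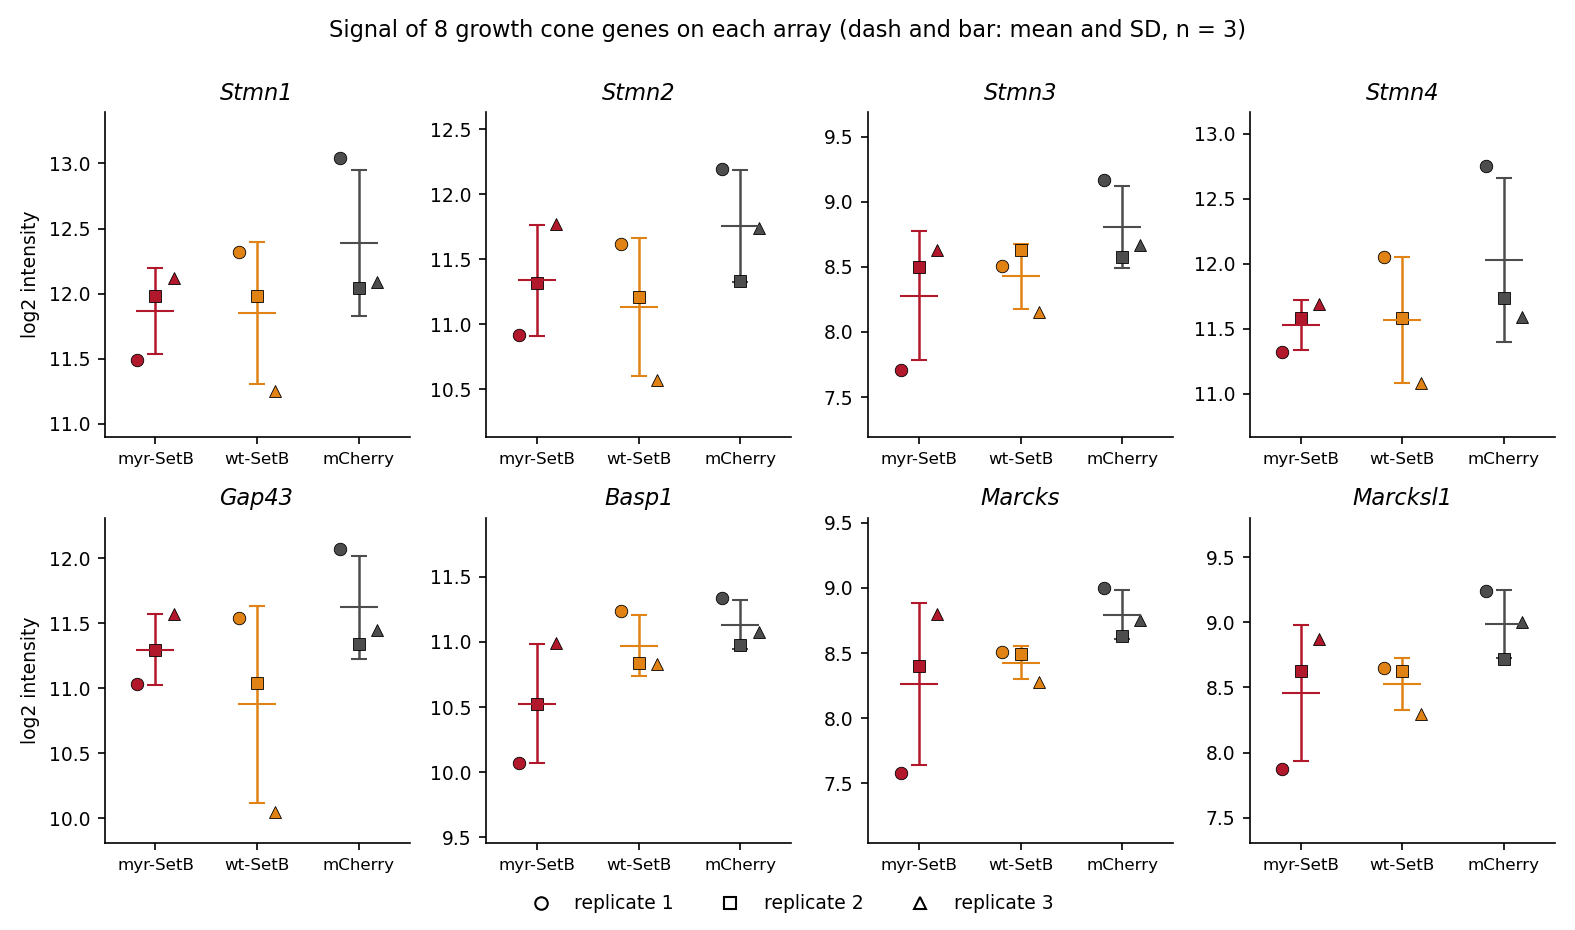
Log2 intensity of each of the 8 genes on each array, with myr-SetB, wt-SetB and mCherry from left to right; symbols mark replicates 1 to 3, and the dash and bar give mean and SD of 3 arrays. Each panel spans the same number of log2 units. The mCherry replicate 1 array is highest in all 8 panels, and either wt-SetB replicate 3 or myr-SetB replicate 1 is lowest.

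Stmn1, the ubiquitous stathmin of dividing cells and young neurons, had log2 intensities of 11.49, 11.98 and 12.12 in myr-SetB, 12.32, 11.98 and 11.25 in wt-SetB and 13.04, 12.04 and 12.09 in mCherry. The mCherry replicate 1 array was the highest, and the other 2 mCherry arrays lay within the range of both Set-β groups. The means were 11.86 ± 0.33 in myr-SetB, 11.85 ± 0.546 in wt-SetB and 12.39 ± 0.565 in mCherry (SD, n = 3). The limma difference from mCherry was -0.53 ± 0.36 (SE) in myr-SetB and -0.54 ± 0.36 in wt-SetB, which corresponds to 69.4% and 68.8% of the mCherry level. Adjusted p was 0.468 and 0.464. Without mCherry replicate 1 the differences were -0.20 and -0.21.

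Stmn2, also called SCG10, is a neuron-specific stathmin of growing and injured axons. Its log2 intensity was 10.92, 11.32 and 11.77 in myr-SetB, 11.62, 11.21 and 10.57 in wt-SetB and 12.19, 11.33 and 11.74 in mCherry. The lowest array was again wt-SetB replicate 3, the highest mCherry replicate 1, and the groups overlapped. The difference from mCherry was -0.42 ± 0.34 (SE, limma adjusted p = 0.512) in myr-SetB and -0.63 ± 0.34 (adjusted p = 0.447) in wt-SetB. The 95% intervals, -1.19 to 0.35 and -1.40 to 0.15, include both no difference and a large one. Without mCherry replicate 1 the difference in myr-SetB was -0.20, and without wt-SetB replicate 3 that in wt-SetB was -0.34.

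Stmn4, or RB3, is a stathmin of the nervous system. It had 11.32, 11.58 and 11.69 in myr-SetB, 12.05, 11.58 and 11.08 in wt-SetB and 12.75, 11.74 and 11.59 in mCherry (log2 intensity). Its pattern over the arrays was that of Stmn1, with mCherry replicate 1 above every other array. The differences from mCherry, -0.50 ± 0.34 in myr-SetB and -0.46 ± 0.34 in wt-SetB (SE), had limma adjusted p of 0.472 and 0.492. They became -0.13 and -0.10 without mCherry replicate 1.

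Stmn3, or SCLIP, a stathmin of neurite branching, had 7.71, 8.50 and 8.63 in myr-SetB, 8.51, 8.63 and 8.15 in wt-SetB and 9.17, 8.58 and 8.67 in mCherry. On myr-SetB replicate 1 it lay below the odorant receptor 95th percentile of that array, 8.15. The difference from mCherry was -0.53 ± 0.28 in myr-SetB and -0.38 ± 0.28 in wt-SetB (SE, limma adjusted p = 0.447 and 0.492). Leaving out myr-SetB replicate 1 brought the first to -0.24, and leaving out mCherry replicate 1 brought the second to -0.20.

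Gap43, the growth-associated protein of regenerating axons and a protein kinase C substrate, had 11.03, 11.29 and 11.57 in myr-SetB, 11.54, 11.04 and 10.05 in wt-SetB and 12.07, 11.34 and 11.45 in mCherry. The array wt-SetB replicate 3 was well below the next lowest one, and without it the wt-SetB values lay among those of the other groups. Means were 11.29 ± 0.272 in myr-SetB, 10.87 ± 0.759 in wt-SetB and 11.62 ± 0.393 in mCherry (SD, n = 3). The difference of wt-SetB from mCherry, -0.75 ± 0.37 (SE, limma adjusted p = 0.447), was the largest of the 8 in that comparison and corresponds to 59.4% of the mCherry level, with a 95% interval of 33% to 107%. It was -0.34 without wt-SetB replicate 3 and -1.08 without wt-SetB replicate 1. In myr-SetB the difference was -0.33 ± 0.37 (adjusted p = 0.627), the smallest of the 8, and -0.11 without mCherry replicate 1.

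Basp1, also known as CAP-23 or NAP-22, is a myristoylated protein that gathers PIP2. It had 10.07, 10.52 and 10.99 in myr-SetB, 11.24, 10.84 and 10.83 in wt-SetB and 11.34, 10.98 and 11.08 in mCherry. Of the myr-SetB arrays, replicates 1 and 2 lay below all 6 arrays of the other groups, and replicate 3 lay just above the lowest mCherry array. Means were 10.53 ± 0.459 in myr-SetB, 10.97 ± 0.237 in wt-SetB and 11.13 ± 0.189 in mCherry (SD, n = 3). Myr-SetB differed from mCherry by -0.60 ± 0.25 (SE), or 65.9% of the mCherry level with a 95% interval of 44.3% to 97.9%. The unadjusted p was 0.0411 and limma's adjusted p 0.447. Without myr-SetB replicate 1 the difference was -0.37. In wt-SetB it was -0.16 ± 0.25 (adjusted p = 0.711), the smallest of the 8. With weights for array quality, whose estimation stopped before it converged, Basp1 in myr-SetB had an adjusted p of 0.0145, but 5903 clusters then passed the threshold in that comparison.

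Marcks, the myristoylated actin-binding substrate of protein kinase C, had 7.58, 8.40 and 8.80 in myr-SetB, 8.51, 8.49 and 8.28 in wt-SetB and 9.0, 8.63 and 8.75 in mCherry. Its relative Marcksl1 had 7.87, 8.63 and 8.87 in myr-SetB, 8.65, 8.63 and 8.30 in wt-SetB and 9.24, 8.72 and 9.0 in mCherry. All wt-SetB arrays were below all mCherry arrays for both genes, while myr-SetB overlapped mCherry. With quantile normalization and cyclic loess wt-SetB overlapped mCherry for both genes, and with range scaling it did for Marcksl1 but not for Marcks (19.7% of clusters did not overlap in that direction). Such an absence of overlap, in the lower direction, held with the deposited scaling for 26.4% of all tested clusters in wt-SetB and for 6.85% in myr-SetB, so that 2 of 8 members in wt-SetB and 0 of 8 in myr-SetB were near or under the background. The differences in wt-SetB were -0.36 ± 0.29 for Marcks and -0.46 ± 0.27 for Marcksl1 (SE, limma adjusted p = 0.506 and 0.449). In myr-SetB both were -0.53, with adjusted p of 0.447, and both genes lay below the odorant receptor 95th percentile on replicate 1. Without that array they were -0.19 and -0.24.

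By exact permutation test, two-sided, the smallest p that 3 against 3 arrays allow is 0.1. Marcks and Marcksl1 reached it in wt-SetB against mCherry, and no other member did in any comparison of 3 with 3. Setting the 6 Set-β arrays against the 3 mCherry arrays gave differences from -0.54 (Gap43) to -0.38 (Basp1), beside a median of -0.17 over all clusters. Here limma called 0 clusters (0%), with 2860 at an unadjusted p under 0.05 (15.6%), of which none was a member. The lowest member adjusted p was that of Marcksl1, 0.318, and its exact permutation p was 0.0476 before any correction for the 32 permutation tests run. The difference was negative for 8 of 8 members and for 64.8% of clusters. None of the 8 members kept the 6 Set-β arrays below all mCherry arrays, which 4.11% of clusters did.

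**Figure D2:**
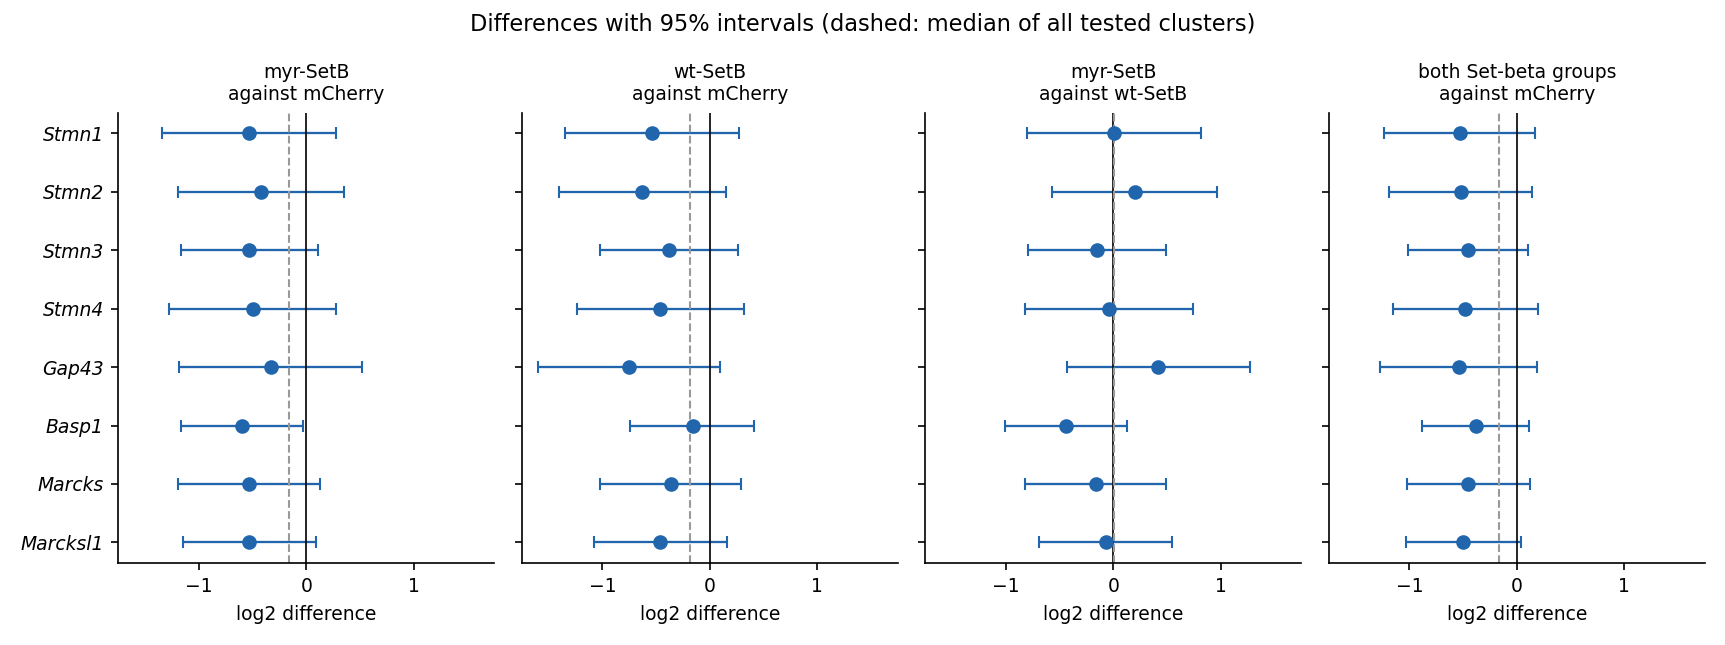
Log2 difference of each gene in 4 comparisons, with 95% intervals from limma; the dashed line is the median difference of all 18343 tested clusters. Against mCherry every point lies left of 0, and of these intervals only that of Basp1 in myr-SetB (-1.17 to -0.03) excludes 0 before adjustment.

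The order of the groups was not the same for all members. The mCherry mean was the highest for each. The wt-SetB mean was the lowest for Gap43, Stmn2 and, by 0.01, Stmn1, and the myr-SetB mean was the lowest for Basp1, Stmn3, Stmn4, Marcks and Marcksl1. Neighbouring groups in each order overlapped, except wt-SetB and mCherry for Marcks and Marcksl1. The direct comparison of myr-SetB with wt-SetB gave 0.42 ± 0.37 (SE) for Gap43 and -0.44 ± 0.25 for Basp1, the highest and the lowest of the 8, with a limma adjusted p of 1 for both. Their 95% intervals were -0.43 to 1.27 and -1.01 to 0.13. For Stmn2 the difference was 0.20 ± 0.34, and for the remaining 5 genes it lay between -0.16 and 0.01. No cluster passed in this comparison (0%), and 208 (1.13%) had an unadjusted p under 0.05, none of them a member. The difference was negative for 5 of 8 members and for 48.5% of clusters. The intervals are too wide to show that the 2 forms of Set-β act alike on these genes.

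Within each array the log2 ratio of Gap43 to Basp1 was 0.95, 0.76 and 0.58 in myr-SetB, 0.29, 0.20 and -0.78 in wt-SetB and 0.73, 0.37 and 0.38 in mCherry. The wt-SetB arrays lay below both other groups, and replicate 3 stood well below the next array. Only differences of this ratio between arrays can be read, since the probes of the 2 genes differ. The pair was chosen after its values were seen, so no test is given. How many of all gene pairs separate the groups in this way was not counted. The order of groups in this ratio was the same with quantile normalization, where it was 0.87, 0.70 and 0.58 in myr-SetB, 0.24, 0.19 and -0.76 in wt-SetB and 0.69, 0.32 and 0.46 in mCherry, and also with cyclic loess and range scaling.

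**Figure D3:**
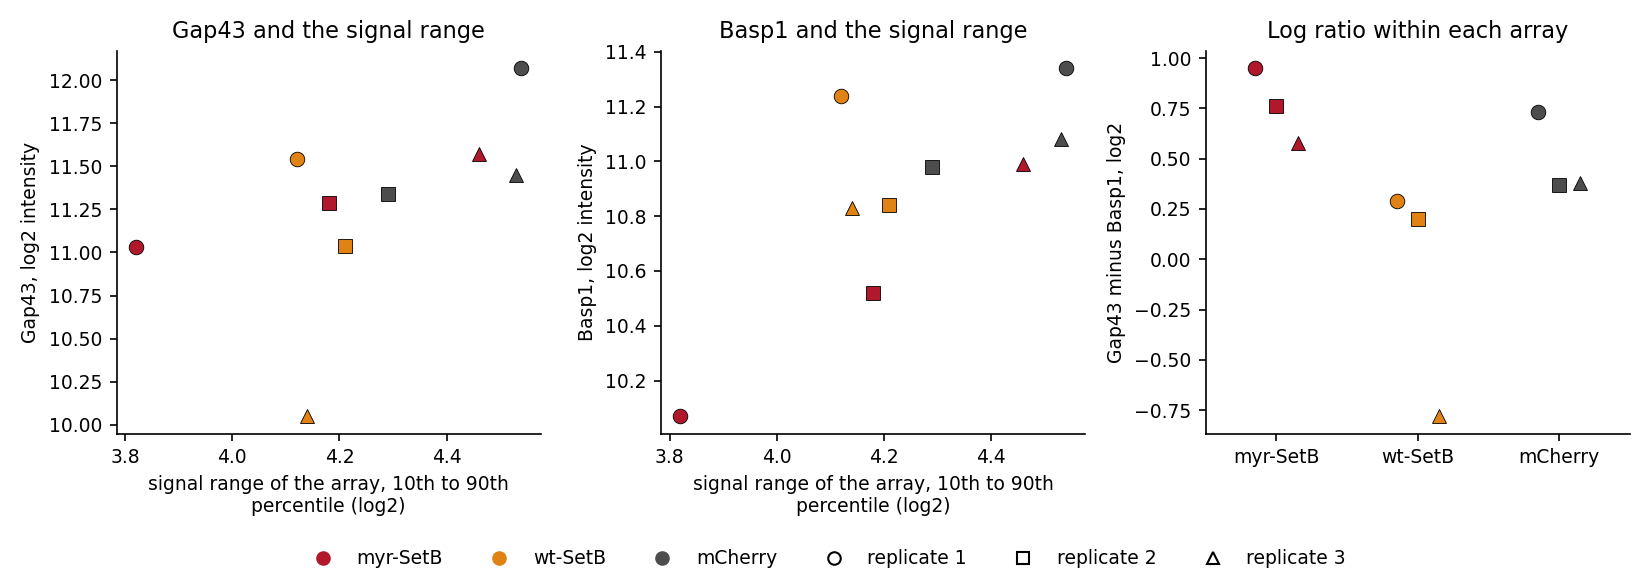
Left and middle, log2 intensity of Gap43 and Basp1 against the signal range of each array; right, the log2 ratio of Gap43 to Basp1 on each array by group. Myr-SetB replicate 1 has the narrowest range (3.82) and the lowest Basp1 (10.07), whereas wt-SetB replicate 3, with the lowest Gap43 (10.05), has a range of 4.14, between those of the other 2 wt-SetB arrays.

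The differences from mCherry moved with the way arrays were scaled to each other. Signal range was 4.54, 4.29 and 4.53 in mCherry, above all wt-SetB arrays and above myr-SetB replicates 1 and 2. With quantile normalization, which gives all arrays the same distribution, the median member difference was -0.25 in myr-SetB and -0.17 in wt-SetB, beside -0.03 for all clusters in each. With cyclic loess it was -0.11 and -0.13, beside -0.01 and -0.03. With each array stretched to the mean signal range, a choice made after seeing the data, it was -0.23 in both, beside -0.09 and -0.11. The number of members with a negative difference was 8, 6 and 7 in myr-SetB and 7, 7 and 7 in wt-SetB under these settings. Basp1 in wt-SetB turned to 0.13, 0.18 and 0.14, and Gap43 in myr-SetB was -0.07, 0.12 and 0.01. Stmn2 in myr-SetB was 0.03 with cyclic loess. Gap43 in wt-SetB stayed at -0.47, -0.42 and -0.43, the lowest of the 8 each time. Between the forms of Set-β Gap43 was at 0.40 to 0.54 and Basp1 at -0.46 to -0.33 under all 4 scalings. With the deposited scaling that of Gap43 was 0.01 once wt-SetB replicate 3 was left out. With quantile normalization, cyclic loess and range scaling all myr-SetB arrays were below all wt-SetB arrays for Basp1, which held for 2.56%, 2.23% and 1.79% of all clusters, against 1.76% with the deposited scaling, where Basp1 overlapped. All myr-SetB arrays were also below all mCherry arrays for Basp1 with quantile normalization (6.27% of clusters) and range scaling (6.87%), and for Stmn3 with range scaling.

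**Figure D4:**
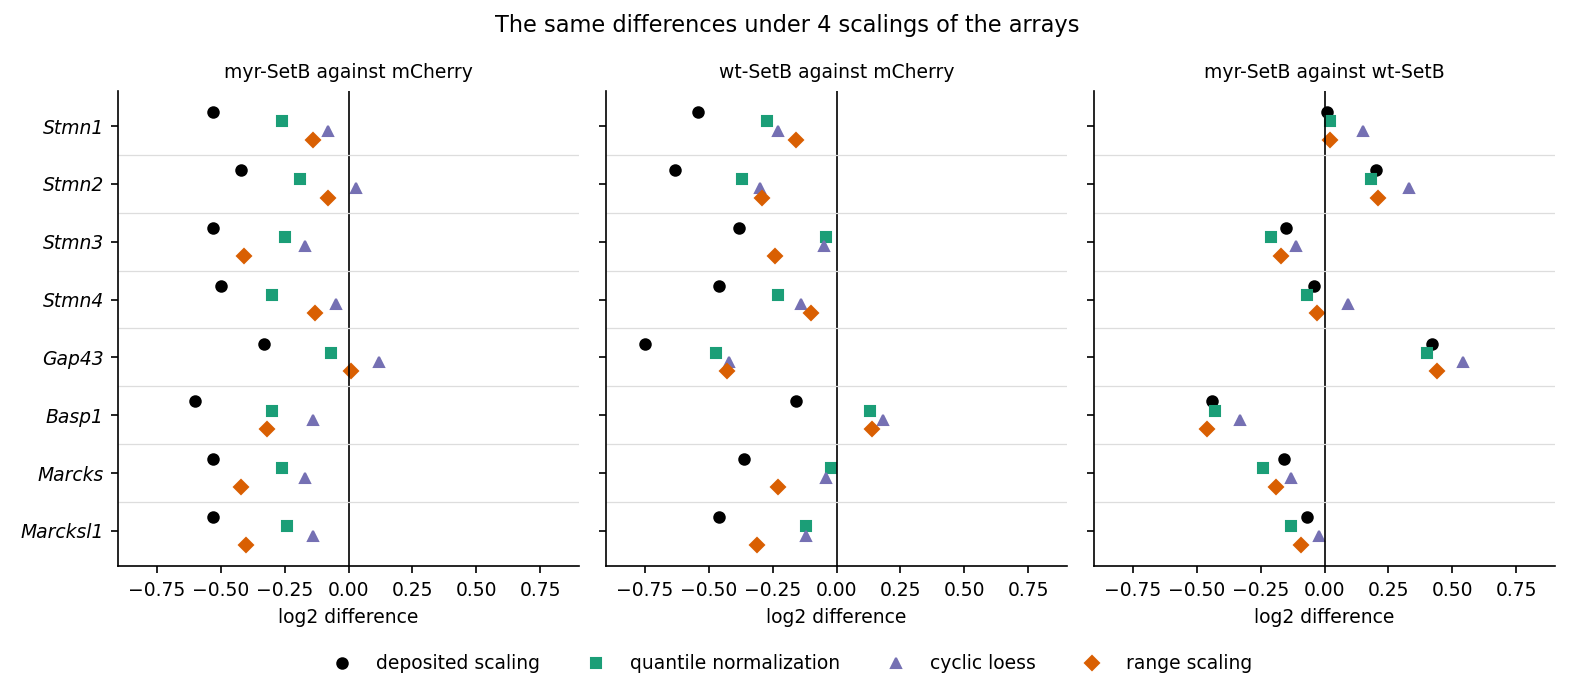
Log2 difference of each gene in 3 comparisons under the deposited scaling (black), quantile normalization, cyclic loess and range scaling. Against mCherry the deposited values are the most negative, while between myr-SetB and wt-SetB the 4 settings lie close together, with Gap43 at the right (0.40 to 0.54) and Basp1 at the left (-0.46 to -0.33).

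The members moved together from array to array within the groups. After subtraction of each group's mean, Pearson's r over the 9 arrays was positive for 28 of 28 pairs, with a median of 0.83, where members and all other tested clusters had a median of 0.26. These r are a description over 9 arrays that share 3 subtracted means and the scaling. The members were put into 2 sets after the values were seen. Stmn1, Stmn2, Stmn4 and Gap43 had r between 0.84 and 0.97 among themselves, and for these 4 wt-SetB replicate 3 was the lowest array. Stmn3, Basp1, Marcks and Marcksl1 had 0.81 to 0.97, and for these 4 myr-SetB replicate 1 was the lowest. Between the sets r was 0.52 to 0.85, which overlaps the range within each set. It was 0.23 to 0.87 with quantile normalization, 0.07 to 0.79 with cyclic loess and 0.07 to 0.72 with range scaling. For the first set r was 0.83 to 0.96 with cyclic loess, 0.79 to 0.92 with quantile normalization and 0.81 to 0.97 with range scaling. The second set had 0.53 to 0.94 with quantile normalization, 0.52 to 0.96 with range scaling and -0.04 to 0.93 with cyclic loess. Basp1 did not stay with it, and Stmn3 did so only in part. With quantile normalization Stmn3 had 0.87 with Stmn1, beside 0.55 with Basp1, 0.82 with Marcks and 0.94 with Marcksl1. With cyclic loess these were 0.72, 0.11, 0.69 and 0.93. With cyclic loess Basp1 had -0.04 to 0.17 with Stmn3, Marcks and Marcksl1 and 0.70 to 0.79 with the first set, and with quantile normalization 0.53 to 0.61 and 0.72 to 0.73. Marcks and Marcksl1 had 0.97 with the deposited scaling and 0.73 with cyclic loess.

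**Figure D5:**
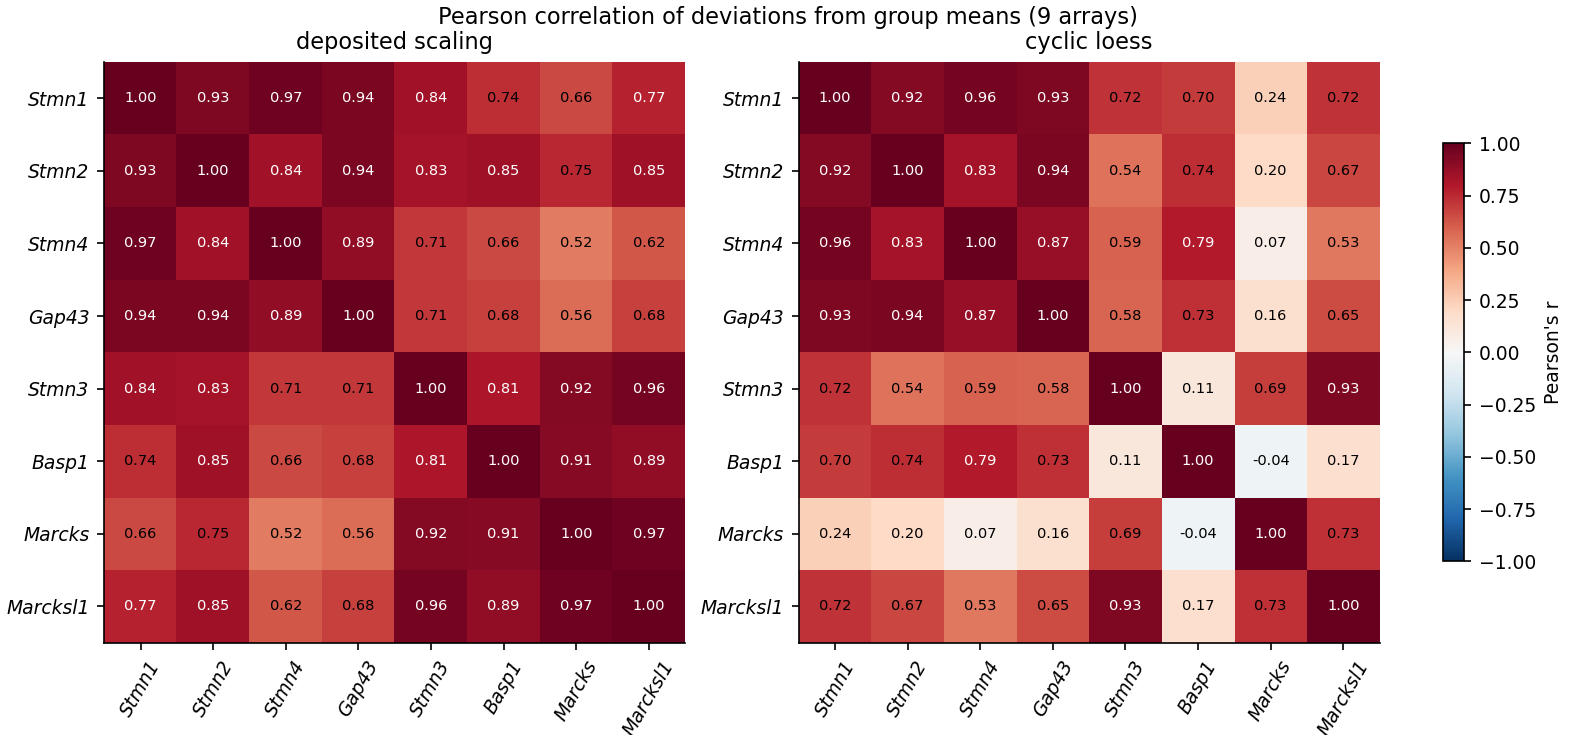
Pearson's r between members over 9 arrays, after subtraction of group means, with the deposited scaling (left) and cyclic loess (right). The block of Stmn1, Stmn2, Stmn4 and Gap43 stays at 0.83 or more in both panels, while Basp1 and Marcks have 0.91 on the left and -0.04 on the right.

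Genes that act on the members were examined in 7 lists of 98 genes, of which 83 were tested. By limma 0 of 83 had an adjusted p under 0.05 in any comparison. In myr-SetB 80 of 83 differences from mCherry were negative (63.9% of all clusters) and 7 of 83 genes had all arrays below mCherry (background 6.85%). In wt-SetB these numbers were 83 of 83 (65.5% of all clusters) and 39 of 83 (background 26.4%). For both Set-β groups against mCherry they were 82 of 83 (64.8% of all clusters) and 4 of 83 (background 4.11%). The list medians below are on the deposited scaling, where the medians over all clusters were -0.16 in myr-SetB and -0.18 in wt-SetB. The list medians came closer to 0 with quantile normalization and cyclic loess. With the first those of the 6 lists other than calmodulin were -0.40 to -0.20 in myr-SetB and -0.27 to -0.17 in wt-SetB, and with the second -0.34 to -0.01 and -0.29 to -0.15. The calmodulin list turned to 0.11 and 0.09 in myr-SetB. The lists were drawn up with earlier results of these data known.

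Kinases of stathmins and of the membrane proteins, among them Jun kinases and protein kinase C, had a median difference of -0.50 in myr-SetB and -0.50 in wt-SetB over 19 genes. Mapk8, or Jnk1, which phosphorylates stathmins, had 6.95, 7.32 and 7.93 in myr-SetB and 7.57, 7.27 and 7.61 in wt-SetB, against 8.34, 7.83 and 8.06 in mCherry. Its arrays in wt-SetB were below those of mCherry, with a difference of -0.59 ± 0.26 (SE), and in myr-SetB, where 1 array was within the mCherry range, it was -0.68 ± 0.26. Mapk10, the neuronal Jun kinase Jnk3, differed by -1.02 ± 0.44 in myr-SetB, and Prkaca, a catalytic subunit of protein kinase A, by -1.16 ± 0.51 in wt-SetB, where mCherry held 8.05, 7.48 and 9.64. Each had a limma adjusted p of 0.447. On every wt-SetB array Mapk8 and Prkaca lay below the odorant receptor 95th percentile (7.94, 7.78 and 7.79). So did Mapk8 on myr-SetB replicates 1 and 2, Mapk10 on myr-SetB replicate 1 and Prkaca on mCherry replicate 2.

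Phosphatases that act on the members had a median of -0.61 in myr-SetB and -0.58 in wt-SetB over 13 genes. Ppp2r2a, a regulatory B subunit of protein phosphatase 2A, had 8.12, 9.64 and 9.90 in myr-SetB against 10.56, 9.83 and 10.47 in mCherry, a difference of -1.06 ± 0.44, with replicate 1 the lowest array. Ppp3cc, a catalytic subunit of calcineurin, differed by -0.89 ± 0.38 in myr-SetB and -1.08 ± 0.38 in wt-SetB. Ppp1cb, of protein phosphatase 1, differed by -0.75 ± 0.30 in wt-SetB. All had an adjusted p of 0.447 by limma. Ppp3cc lay below the odorant receptor 95th percentile on every wt-SetB array, on myr-SetB replicates 1 and 2 and on mCherry replicate 2. Ppp2r2a did so on myr-SetB replicate 1.

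Enzymes of lipid anchoring, 16 genes, had a median of -0.63 in myr-SetB and -0.52 in wt-SetB. Zdhhc13, a palmitoyltransferase relative, had 7.24, 6.93 and 7.50 in myr-SetB and 7.66, 7.54 and 7.27 in wt-SetB, against 8.32, 7.67 and 8.22 in mCherry. Both Set-β groups were wholly below mCherry, as they were for 4.11% of all clusters. The differences were -0.85 ± 0.23 and -0.58 ± 0.23 (limma adjusted p = 0.447 in both). Zdhhc13 lay below the odorant receptor 95th percentile on every wt-SetB array, on myr-SetB replicates 1 and 2 and on mCherry replicate 2. Lypla2, a thioesterase that removes palmitate from Gap43, had 7.42, 7.75 and 8.79 in myr-SetB and 8.30, 8.0 and 7.73 in wt-SetB, against 9.13, 8.71 and 9.34 in mCherry. Its differences were -1.07 ± 0.35 and -1.05 ± 0.35, at the same adjusted p, and -0.74 in both groups with cyclic loess. Lypla2 lay below the odorant receptor 95th percentile on myr-SetB replicates 1 and 2 and on wt-SetB replicate 3.

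Regulators of the members' RNAs, 12 genes, had a median of -0.42 in myr-SetB and -0.44 in wt-SetB. Elavl4, or HuD, which stabilises Gap43 RNA, had 8.32, 8.41 and 7.82 in wt-SetB against 9.49, 8.49 and 8.92 in mCherry, a difference of -0.78 ± 0.39 (limma adjusted p = 0.447). Elavl1, its ubiquitous relative, differed by -0.52 ± 0.24 in myr-SetB and -0.64 ± 0.24 in wt-SetB. Neither group overlapped mCherry for Elavl1 (4.11% of all clusters), but its highest myr-SetB array was at 9.36 and its lowest mCherry array at 9.37. Cyclic loess brought its differences to -0.09 and -0.27. Ptbp2, a neuronal splicing regulator, differed by -0.61 ± 0.31 in myr-SetB. Partners at the membrane, 12 genes, had -0.55 in myr-SetB and -0.58 in wt-SetB. Among them phospholipase Plcb1, which cleaves PIP2, differed by -0.64 ± 0.27 and the vesicle protein Rab3a by -0.64 ± 0.29 in myr-SetB. In wt-SetB profilin Pfn2 differed by -0.82 ± 0.32 and the lipid kinase Pi4ka by -0.53 ± 0.25. Plcb1 lay below the odorant receptor 95th percentile on every myr-SetB array and on mCherry replicates 2 and 3. So did Ptbp2 and Rab3a on myr-SetB replicate 1 and Pi4ka on wt-SetB replicate 3.

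Tubulins, the cargo of stathmins, had a median of -0.47 in myr-SetB and -0.52 in wt-SetB over 8 genes. Tuba4a had 7.41, 7.91 and 8.56 in myr-SetB and 7.84, 7.85 and 7.75 in wt-SetB, against 9.02, 8.61 and 8.77 in mCherry. No array of either Set-β group reached mCherry, which held for 4.11% of all clusters. The differences were -0.84 ± 0.27 and -0.99 ± 0.27 (SE, limma adjusted p = 0.447). Tuba4a lay below the odorant receptor 95th percentile on myr-SetB replicate 1 and on wt-SetB replicates 1 and 3. Tubb2a differed by -0.46 ± 0.22 and -0.47 ± 0.22, which cyclic loess brought to -0.01 and -0.09. Of the calmodulin list only 3 genes were tested. Calm2 differed by -0.44 ± 0.27 in myr-SetB and -0.36 ± 0.27 in wt-SetB, and Pcp4, a calmodulin binder, by -0.19 ± 0.28 and -0.46 ± 0.28. In myr-SetB Pcp4 turned to 0.11 with both quantile normalization and cyclic loess, where Calm2 was at -0.14 and 0. Pcp4 lay below the odorant receptor 95th percentile on myr-SetB replicate 2 and on wt-SetB replicate 1.

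The genes most like each member were taken as those of highest Pearson's r over the 9 arrays, without subtraction of group means, among 10713 other clusters with 1 symbol. For Gap43 they were Pcdh17, a protocadherin (r = 0.989), Uchl1, a neuronal ubiquitin hydrolase (0.983), and Bex1 (0.978), beside a median of 0.38 over all candidates, and with cyclic loess these pairs kept 0.96 to 0.98. For Stmn1 they were Sdcbp, or syntenin (0.990), Cxadr, an adhesion protein (0.990), and the kinase Tnik (0.989). Tnik also led for Stmn4 (0.985), followed by the deacetylase Hdac4 and the kinase Stk32a (0.982 each). With cyclic loess these 3 had 0.92, 0.82 and 0.79 with Stmn4, and with range scaling 0.81, 0.83 and 0.79. For Stmn2 the nearest were the splicing factor Zrsr2 (0.986), Mllt11 (0.984) and the zinc finger gene Zfp157 (0.983), at 0.90, 0.93 and 0.84 with cyclic loess.

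For Stmn3 the nearest were Ssu72, an RNA polymerase II phosphatase (0.992, but 0.64 with cyclic loess), Sms, or spermine synthase (0.990), and the kinase Mast2 (0.990). Marcks was nearest to Lars1, a leucyl-tRNA synthetase (0.996), Gabbr1, a GABA-B receptor subunit (0.994), and Brd2, a bromodomain protein (0.990), with a median of 0.64 over all candidates. Marcksl1 was nearest to Nacc1 (0.998), Itm2b (0.996) and Actr6 (0.994, but 0.84 with cyclic loess), with a median of 0.66. Basp1 had the lowest leading values, 0.974 for the kinase Clk3, 0.970 for Rnf44 and 0.968 for Wipf2, a regulator of actin assembly, and these were 0.59, 0.72 and 0.62 with cyclic loess. The 9 arrays share their scaling across genes, and the medians over all candidates are well above 0.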

How the data were processed

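Whole-transcriptome amplification, biotin labelling and Affymetrix Rat Gene 2.0 ST arrays were used, per the labels and the design text. Per the submitters' processing notes the tools were Affymetrix Expression Console and RMA, without versions. Intensity was deposited by the authors as linear values, with each array scaled to the same median. No source used here names the genome build behind the array. The platform annotation gave 18511 of 36685 clusters 1 symbol, 575 several and 17599 none, and no cluster carried the symbol Set, so the transfected gene was not followed.

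The log2 values entered a single linear model with 1 mean per group in limma 3.58.1 in R 4.3.3, two-sided, on the clusters whose mean log2 reached 6.65, the median over clusters. All 8 members passed. P-values were adjusted over 18343 clusters by the Benjamini-Hochberg method. Members were also tested by exact permutation in SciPy 1.17.1. The fit was tested on simulated data. Alternatives were quantile normalization, cyclic loess, range scaling, no filter, a filter at the 75th percentile, fits of 2 groups, array weights, a replicate block and leaving out each array.

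The members, lists and tests were chosen with earlier results of these data known. Named genes were the members, the 2 genes of smallest p per list in each comparison with mCherry, and the 3 clusters most correlated with each member. Precision is limited by the number of arrays, which have no read depth.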

Additional observations from a re-analysis of the deposited data

How the results depend on the processing

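No cluster was called in any of the 4 comparisons under the main settings, without a filter, with the 75th percentile filter, with any scaling or without any 1 array (0 to 0), nor in fits of 2 groups, which were run for the 3 comparisons of single groups. With array weights, whose estimation did not converge, 5903 clusters were called in myr-SetB against mCherry, 1270 in myr-SetB against wt-SetB, 4198 for both Set-β groups against mCherry and 0 in wt-SetB against mCherry. Basp1 in myr-SetB against mCherry (-0.57) was the 1 member value called there, and the cause was not tested. The replicate block left every difference as it was and called 0 clusters in each comparison. Deviations of same-numbered arrays were correlated at -0.07 to 0.38, above 0 in 8 of 9 pairs and above 0.1 in 5. For arrays of different number and group they were at -0.40 to 0.36, above 0 in 7 of 18 pairs and above 0.1 in 6. The summed glial markers also followed the number in every group. Since not every same-numbered pair was above 0.1 and the labels name no shared batch, the arrays were not treated as paired. Whether the numbers mark a shared batch was not settled. Over the left-out arrays the median member difference was -0.68 to -0.24 in myr-SetB and -0.61 to -0.24 in wt-SetB against mCherry, -0.26 to 0.19 between the forms of Set-β and -0.62 to -0.29 for both against mCherry.

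Of 536 member values under alternatives, 514 kept sign and call and 21 changed sign, none of them in a called value. Against mCherry the sign changes were those of scaling: Stmn2 0.03 and Gap43 0.12 (cyclic loess) and 0.01 (range scaling) in myr-SetB, Basp1 0.13 (quantile), 0.18 (cyclic loess) and 0.14 (range scaling) in wt-SetB, and Basp1 0.02 (cyclic loess) for both Set-β groups. Between myr-SetB and wt-SetB Stmn4 turned to 0.09 with cyclic loess, and with array weights Stmn3 was 0.02, Stmn4 0.03 and Marcksl1 0.08. Over the left-out arrays the ranges in this comparison were -0.29 to 0.25 for Stmn1, -0.08 to 0.45 for Stmn2, -0.33 to 0.13 for Stmn3, -0.28 to 0.20 for Stmn4, -0.44 to 0.18 for Marcks and -0.27 to 0.22 for Marcksl1. Gap43 (0.01 to 0.75) and Basp1 (-0.67 to -0.21) kept their sign, though Gap43 was at 0.01 without wt-SetB replicate 3.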

Other observations

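Log ratios of other members within arrays were as follows. Stmn1 over Stmn2 was 0.57, 0.66 and 0.36 in myr-SetB, 0.70, 0.77 and 0.69 in wt-SetB and 0.85, 0.71 and 0.34 in mCherry. Stmn4 over Stmn1 was -0.17, -0.40 and -0.43 in myr-SetB, -0.27, -0.40 and -0.17 in wt-SetB and -0.29, -0.30 and -0.50 in mCherry. Marcks over Marcksl1 was -0.29, -0.23 and -0.06 in myr-SetB, -0.14, -0.13 and -0.02 in wt-SetB and -0.24, -0.09 and -0.25 in mCherry. The ratios of Stmn4 over Stmn1 and Marcks over Marcksl1 overlapped between all groups. With the deposited scaling that of Stmn1 over Stmn2 was lower on every myr-SetB array than on any wt-SetB array, and both overlapped mCherry. With quantile normalization myr-SetB and wt-SetB overlapped, at 0.42, 0.75 and 0.42 against 0.62, 0.81 and 0.65. They stayed apart with cyclic loess and range scaling. Stmn2 over Basp1 was 0.85, 0.80 and 0.77 in myr-SetB, 0.38, 0.37 and -0.26 in wt-SetB and 0.85, 0.36 and 0.67 in mCherry, so wt-SetB lay below myr-SetB as for Gap43 over Basp1. These pairs were chosen after their values were seen and were not tested, and the share of all gene pairs that separate the groups likewise was not counted.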
